A study of Homo sapiens with 8 samples.

Results

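The replication-dependent histone genes encode the core histones H2A, H2B, H3 and H4 and the linker histone H1 that package newly copied DNA. They were taken as the protein-coding genes whose symbols run H1-1 to H1-6, H2AC, H2BC, H3C or H4C with a number, which gave 69 of the 20037 protein-coding genes in the RefSeq table of build GRCh38.p14. These are 6 H1, 17 H2A, 18 H2B, 13 H3 and 15 H4 genes, of which 55 lie on chromosome 6, 13 on chromosome 1 and 1 on chromosome 12. A cell switches these genes on together as it enters S phase, and their mRNAs end in a stem-loop in place of a poly(A) tail. Many H2A and H2B genes stand back to back, so that both are transcribed outward from a short shared promoter. NF-Y, a complex of the 3 subunits NFYA, NFYB and NFYC, binds the sequence CCAAT, which reads ATTGG on the other strand and is a common element of histone promoters.

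NF-Y was profiled by CUT&RUN, which releases and sequences the DNA under an antibody by means of a tethered nuclease, in RH30 and RH4, established rhabdomyosarcoma lines labelled positive for the fusion gene PAX3-FOXO1. The RH30 cells were engineered with an inducible cytosine base editor (seBE in the titles), transduced with 1 guide RNA, selected with blasticidin and collected on day 8 after rapamycin had started editing. The guides sgCCAAT2a and sgCCAAT2b (the edited libraries here) were aimed at a CCAAT motif of the cells' own PAX3 promoter, and sgCtrl1 and sgCtrl2 were controls that carry the same editor. RH30 gave 1 NFYB library per guide, and uninfected, untreated RH4 gave 1 library with an NFYB and 1 with an NFYC antibody; 2 IgG libraries were not analysed here. The source name and cell line fields of the RH30-titled libraries read RH4, and the titles, which the design description follows, were used. Each guide and antibody has 1 library, so no difference below has a replicate check and none was tested. Peak lists hold no expression values, so the cell lines' marker genes could not be checked.

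The peak lists held 2451 entries for sgCCAAT2a, 2558 for sgCCAAT2b, 4025 for sgCtrl1, 6687 for sgCtrl2, 3243 for RH4 NFYB and 3760 for RH4 NFYC. Per the file headers, the edited libraries held 21.2 and 28.2 M tags, of which 1.22% and 1.46% lay in peaks, against 13.9 and 10.5 M tags in sgCtrl1 and sgCtrl2, of which 2.4% and 3.1% lay in peaks. The edited libraries were thus the deeper ones and had the lower share of tags in peaks, and the part of this in the values below was not tested. Depth is unknown for the RH4 libraries. The lists give positions without heights, so a site is either called or not called in a library, and a missing call does not show that NF-Y was absent.

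Of the 69 genes, 64 have a promoter in the RefSeq sequence table, which spans 250 bases before to 50 bases after the start of transcription. H4C1, H4C3, H2AC12, H3C11 and H3C12 have none there. The following 5 are the whole stretches between the facing starts of an H2A gene and an H2B gene, chosen to show pairs with a peak in 6, 6, 4, 2 and 0 libraries. All sequences are from RefSeq in build GRCh38.p14, run 5′ to 3′ in the direction of the named gene and end at the base before its start, with CCAAT and ATTGG in capitals. The H2BC8/H2AC8 stretch (chr6:26216689-26216920, plus strand) and the H2AC17/H2BC17 stretch (chr6:27893186-27893424, minus strand) had a peak in all 6 libraries. The H2BC12/H2AC12 stretch (chr6:27146859-27147105, minus strand) had one in the 4 RH30 libraries, and the H2AC25/H2BC26 stretch (chr1:228457874-228458102, minus strand) in the 2 RH4 libraries. The H2AC14/H2BC14 stretch (chr6:27814778-27815021, minus strand) had none, although it holds 5 of the motifs.
H2AC8: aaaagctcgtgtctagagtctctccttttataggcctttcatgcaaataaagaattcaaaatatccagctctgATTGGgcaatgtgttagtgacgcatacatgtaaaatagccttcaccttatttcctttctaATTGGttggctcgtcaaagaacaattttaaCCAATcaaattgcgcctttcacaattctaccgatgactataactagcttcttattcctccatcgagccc
H2AC17: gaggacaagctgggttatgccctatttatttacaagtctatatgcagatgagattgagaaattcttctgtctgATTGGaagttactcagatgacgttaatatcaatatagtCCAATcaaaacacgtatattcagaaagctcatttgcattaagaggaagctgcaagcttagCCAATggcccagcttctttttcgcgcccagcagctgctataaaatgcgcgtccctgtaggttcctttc
H2BC12: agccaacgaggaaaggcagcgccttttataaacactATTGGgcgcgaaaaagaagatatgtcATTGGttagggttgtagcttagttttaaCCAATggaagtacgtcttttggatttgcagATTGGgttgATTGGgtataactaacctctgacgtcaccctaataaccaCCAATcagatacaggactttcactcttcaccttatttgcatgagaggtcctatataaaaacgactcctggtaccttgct
H2AC25: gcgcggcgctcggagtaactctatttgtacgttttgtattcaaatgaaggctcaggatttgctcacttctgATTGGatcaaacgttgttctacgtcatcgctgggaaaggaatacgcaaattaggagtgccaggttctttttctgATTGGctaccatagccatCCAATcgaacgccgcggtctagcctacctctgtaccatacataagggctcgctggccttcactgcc
H2AC14: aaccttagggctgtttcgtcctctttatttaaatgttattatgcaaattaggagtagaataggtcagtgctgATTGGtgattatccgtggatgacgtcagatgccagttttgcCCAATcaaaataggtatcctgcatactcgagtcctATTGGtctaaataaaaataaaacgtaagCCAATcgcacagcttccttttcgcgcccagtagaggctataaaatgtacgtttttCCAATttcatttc

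The other 3 show single genes of the classes H3, H1 and H4, as the 250 bases before the start. The H3C2 promoter (chr6:26032100-26032349, minus strand) holds 2 motifs and had a peak in 5 libraries. The H1-4 promoter (chr6:26156079-26156328, plus strand) holds 1 motif and had a peak in 1 library, sgCtrl2. The H4C5 promoter (chr6:26204360-26204609, plus strand) holds none in this stretch and had a peak in sgCtrl2 as well.
H3C2: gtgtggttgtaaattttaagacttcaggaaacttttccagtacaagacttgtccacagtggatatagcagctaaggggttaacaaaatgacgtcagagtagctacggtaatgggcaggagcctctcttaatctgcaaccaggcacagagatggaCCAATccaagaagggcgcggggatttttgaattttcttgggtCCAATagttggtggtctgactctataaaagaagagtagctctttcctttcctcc
H1-4: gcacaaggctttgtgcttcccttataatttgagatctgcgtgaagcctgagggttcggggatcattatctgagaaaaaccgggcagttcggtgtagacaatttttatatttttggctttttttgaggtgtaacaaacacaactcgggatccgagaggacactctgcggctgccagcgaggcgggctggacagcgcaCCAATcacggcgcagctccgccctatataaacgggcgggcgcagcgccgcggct
H4C5: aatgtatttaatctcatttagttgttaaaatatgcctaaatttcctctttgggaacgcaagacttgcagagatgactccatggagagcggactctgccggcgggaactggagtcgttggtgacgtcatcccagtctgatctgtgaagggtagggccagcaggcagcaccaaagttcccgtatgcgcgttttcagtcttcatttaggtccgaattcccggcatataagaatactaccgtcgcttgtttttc

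A gene was counted as having a peak where a peak overlapped, by at least 1 bp, the stretch from 1000 bp before to 1000 bp after either end of the gene, called its window here. By this count 28 of 69 histone genes (40.6%, exact Clopper-Pearson 95% interval 28.9% to 53.1%) had a peak in sgCCAAT2a, against 8.9% of all protein-coding genes. In sgCCAAT2b the count was 27 (39.1%, interval 27.6% to 51.6%), against 9.27% of all protein-coding genes. In the controls it was 26 in sgCtrl1 (37.7%, interval 26.3% to 50.2%), where all protein-coding genes stood at 12.6%, and 30 in sgCtrl2 (43.5%, interval 31.6% to 56.0%), where they stood at 16.8%. In RH4, 23 histone genes had an NFYB peak (33.3%, interval 22.4% to 45.7%) and 26 an NFYC peak (37.7%, interval 26.3% to 50.2%), against 15.0% and 15.3% of all protein-coding genes. The intervals cover counting only, and neighbouring histone genes share peaks, so the genes are not independent. The stricter part of each list was the first 50% in file order for RH30 and the widest 50% for RH4. There the count was 5 in sgCCAAT2a and 16 in sgCCAAT2b, against 8 in sgCtrl1 and 25 in sgCtrl2. For RH4 NFYB and NFYC it was 11 and 15. The share of all protein-coding genes in these stricter parts was not computed, so these counts have no background beside them.

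The count of histone genes ranged from 23 to 30 over the 6 lists, while the share over all protein-coding genes ranged from 8.9% to 16.8%. The ratio of the 2 shares was 4.56 and 4.22 in sgCCAAT2a and sgCCAAT2b, against 2.99 and 2.59 in sgCtrl1 and sgCtrl2. It was 2.22 for RH4 NFYB and 2.46 for RH4 NFYC. Counted as distinct peaks, the histone genes held 18 in each edited library, against 20 in sgCtrl1 and 24 in sgCtrl2, and 12 and 17 for RH4 NFYB and NFYC. Per 1000 peaks of the list this was 7.34 and 7.04 in the edited libraries, against 4.97 and 3.59 in the controls, and 3.7 and 4.52 in RH4. The same rate for other genes was not computed. The rate also depends on how many peaks of a list lie away from genes. Within the window of any gene end lay 2148 of 4025 sgCtrl1 peaks and 2900 of 6687 sgCtrl2 peaks. The authors' RH4 consensus list placed an entry at 23 histone genes, against 13.4% of all protein-coding genes.

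Of the 69 genes, 17 had a peak in all 6 libraries (background over all protein-coding genes 7.03%), 33 had none in any (background 78.3%), and 19 had one in 1 to 5 libraries. The 17 are H2BC21, H2AC20, H2AC21, H3C2, H2AC4, H1-2, H2BC4, H2AC6, H1-4, H2BC5, H3C4, H2AC7, H2BC7, H2BC8, H2AC8, H2AC17 and H2BC17, of which 7 encode H2A, 6 H2B, 2 H3, 2 H1 and 0 H4. In the stricter part of each list, 3 histone genes had a peak in all 6 libraries, with no background computed there. Over their own promoters, 13 of the 17 had a peak in all 6 libraries. The other 4 are H3C2 with 5 libraries, H2AC4 with 3, H1-2 with 2 and H1-4 with 1. The remaining H3C2 call, in sgCtrl2, lies inside the gene, and those of H2AC4, H1-2 and H1-4 come from a nearby site. Exactly 1 library had a peak at H4C5 (sgCtrl2) and at H3C10 and H2AC16 (RH4 NFYC each).

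**Figure D1:**
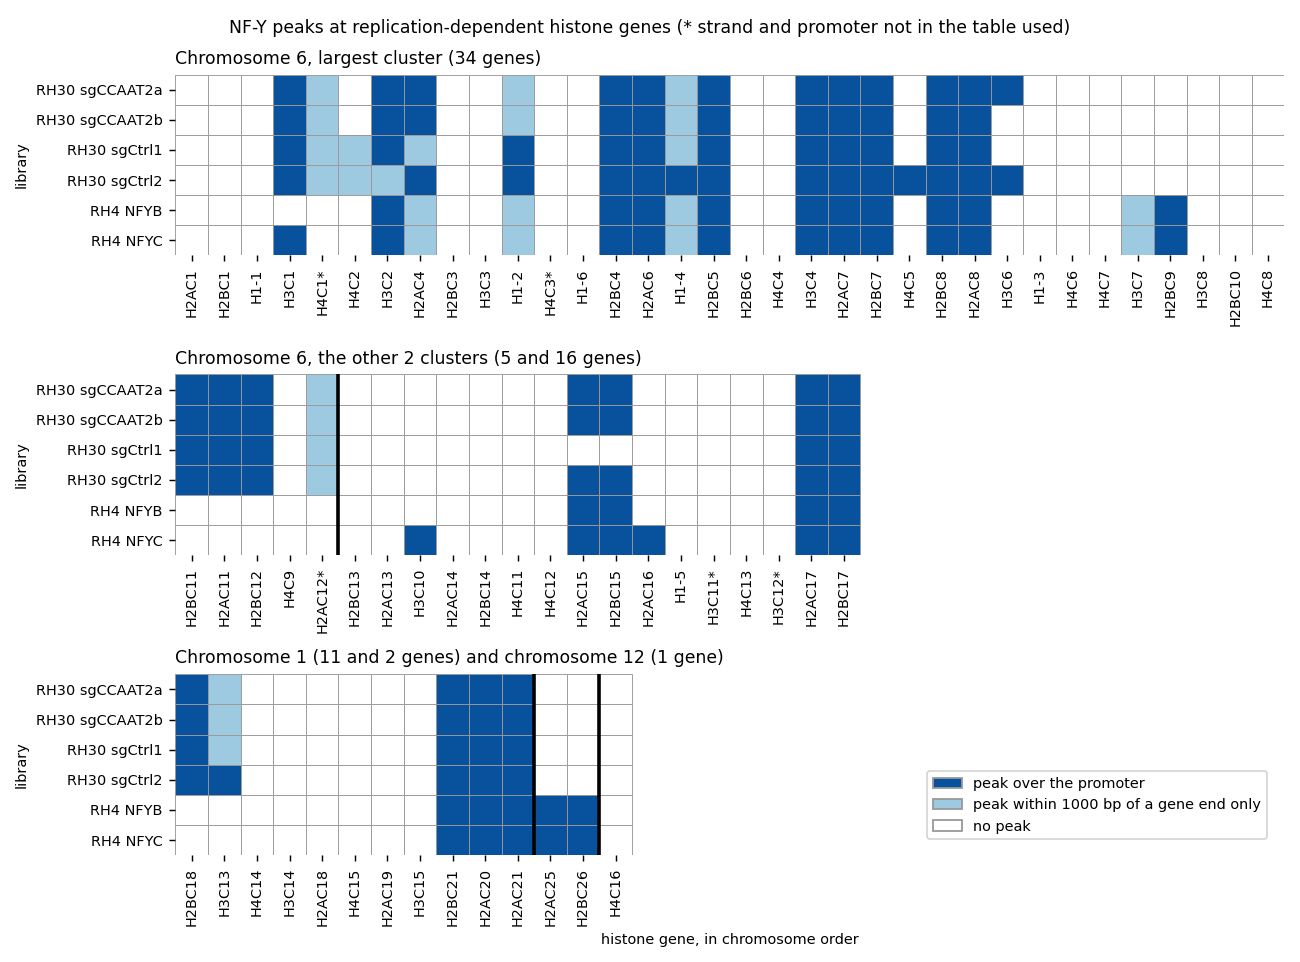
Each column is a histone gene in chromosome order and each row a library, edited libraries at the top; an asterisk marks genes whose promoter is not in the table used. The shading separates a peak over the gene's own promoter, a peak only elsewhere in the window of 1000 bp around a gene end, and no peak. Columns filled in all 6 rows belong to 17 genes, and 33 columns are empty.

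Over the promoters themselves, 23 and 22 of 64 histone promoters had a peak in sgCCAAT2a (35.9%, interval 24.3% to 48.9%) and sgCCAAT2b (34.4%, interval 22.9% to 47.3%), against 8.96% and 9.25% of all promoters in the table. The controls had 20 in sgCtrl1 (31.2%, interval 20.2% to 44.1%) and 26 in sgCtrl2 (40.6%, interval 28.5% to 53.6%), against 12.4% and 15.7% of all promoters. RH4 had 19 for NFYB (29.7%, interval 18.9% to 42.4%) and 22 for NFYC (34.4%, interval 22.9% to 47.3%), against 15.5% and 15.6%. In all, 32 histone promoters had a peak in at least 1 library, 13 in all 6, and 32 in none. The matching shares over all promoters together were not computed, so these counts have no background beside them. Facing genes share a promoter stretch and its peak: with neighbours that share a peak counted once, the 36 genes with a window peak in at least 1 library form 20 groups.

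H2A and H2B genes, whose products pair as the dimers on either face of the nucleosome, had the highest counts. Of 17 H2A genes, 10 in each edited library had a peak, against 9 in sgCtrl1 and 10 in sgCtrl2, with 9 and 10 for RH4 NFYB and NFYC. Of 18 H2B genes, 10 in each edited library had a peak, against 9 and 10 in the controls, with 9 for each RH4 antibody. In at least 1 library, 12 H2A genes (interval 44.0% to 89.7%) and 12 H2B genes (interval 41.0% to 86.7%) had a peak. Those without one in any library are H2AC1, H2AC13, H2AC14, H2AC18 and H2AC19 among the H2A genes and H2BC1, H2BC3, H2BC6, H2BC10, H2BC13 and H2BC14 among the H2B genes.

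The 13 H3 genes, which encode a core histone that forms a tetramer with H4, had a peak at 5 in sgCCAAT2a and 4 in sgCCAAT2b, against 4 in sgCtrl1 and 5 in sgCtrl2, with 3 and 5 for RH4 NFYB and NFYC. As shares these are 23.1% to 38.5%, against 8.9% to 16.8% of all protein-coding genes. In all, 7 H3 genes had one in at least 1 library (53.8%, interval 25.1% to 80.8%), and H3C3, H3C8, H3C11, H3C12, H3C14 and H3C15 had none. Of all protein-coding genes, 78.3% had none in any library. H3C2 had the window peak in all 6 libraries, and H3C1 lacked it only in RH4 NFYB. The call at H3C4 in all 6 libraries rests on a second annotated start that H3C4 shares with H2AC7. At its other start, H3C4 had a peak of its own in sgCCAAT2a, sgCCAAT2b, sgCtrl1 and RH4 NFYC.

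The 15 H4 genes had the fewest calls of the core histones. H4C1, H4C2 and H4C5 had a peak in at least 1 library (interval 4.33% to 48.1%), and the counts were 1 in each edited library, against 2 and 3 in sgCtrl1 and sgCtrl2. As shares these are 6.67% in each edited library, against 13.3% and 20% in the controls, beside 8.9%, 9.27%, 12.6% and 16.8% of all protein-coding genes in the same lists, so the H4 count was near the background in RH30. Both RH4 libraries had 0 of 15, which allows a share of up to 21.8% by the exact interval. H4C5 was the 1 H4 promoter of 13 with a peak over it in any library, and that peak was listed in sgCtrl2 alone. At H4C2 the sgCtrl1 peak lay past the end of the gene and the sgCtrl2 peak inside it, so the 2 controls did not mark the same site. H4C1 had window peaks in the 4 RH30 libraries, at 2 sites, 1 of which also falls in the window of H3C1.

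Among the 6 genes of linker histone H1, H1-2 and H1-4 had a window peak in all 6 libraries, while H1-1, H1-3, H1-5 and H1-6, the last a testis form, had none. Of all protein-coding genes, 7.03% had one in all 6 libraries and 78.3% in none. The H1-2 window holds a site called in all 6 libraries that is not a promoter in the RefSeq table, at chr6:26055245-26055508. It lies 232 bp past the last base of H1-2 and outside the annotated gene. Over the H1-2 promoter itself, 0 of the edited libraries had a peak, against both controls. The H1-4 window reaches the promoter of H2BC5, 741 bp past the last base of H1-4, where all 6 libraries had a peak. Over the H1-4 promoter the 1 peak was in sgCtrl2, at chr6:26156220-26156416. The calls of H1-2 and H1-4 in all 6 libraries therefore come from sites off their own promoters.

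**Figure D2:**
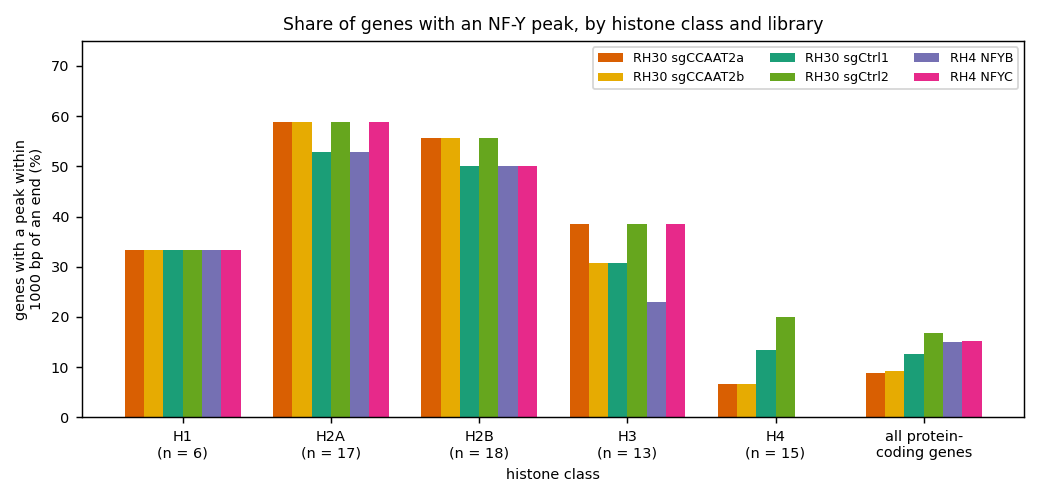
The percent of genes in each class with a peak in the window of 1000 bp around a gene end, one group of bars per class and one for all protein-coding genes, with one bar per library, edited libraries first. H2A and H2B stand above H3, and H4 reaches 3 of 15 genes in sgCtrl2 and 0 in both RH4 libraries.

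Adjacent H2A and H2B genes with facing starts less than 500 bp apart form 12 pairs, with gaps of 193 to 247 bp (median 237). The strand of both genes is given for 11, and H2AC12 has none in the table. A peak overlapped the gap in 8 of 12 pairs in each edited library (66.7%), against 7 in sgCtrl1 (58.3%) and 8 in sgCtrl2 (66.7%), and in 7 (58.3%) with each RH4 antibody. Counting a pair only where the centre of the peak lies in the gap, sgCtrl1 had 3. Of 884 other head-to-head pairs of protein-coding genes, the shares were 16.7% and 18.1% in sgCCAAT2a and sgCCAAT2b, against 22.2% and 27.9% in sgCtrl1 and sgCtrl2, and 27.1% and 26.9% for RH4 NFYB and NFYC. The 41 histone promoters outside the pairs had a peak at 8 (19.5%) and 7 (17.1%) in the edited libraries, against 7 (17.1%) and 11 (26.8%) in the controls, and at 5 (12.2%) and 8 (19.5%) in RH4. All promoters of the table stood at 8.96% and 9.25%, against 12.4% and 15.7%, and at 15.5% and 15.6% in the same order of lists, so the unpaired histone share was below the background in RH4 NFYB and above it in the other 5. Among these, the 11 unpaired H2A and H2B promoters had 4 in each edited library, against 3 and 4 in the controls, and 3 and 4 in RH4. The 41 also include H3C4, which has a second start shared with H2AC7. In sgCtrl2 and RH4 NFYB its only promoter peak was the one over the H2AC7/H2BC7 gap, so that peak counts on both sides there.

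The 4 RH30 libraries differed at 1 pair, and RH30 and RH4 at 3. H2BC21/H2AC20, H2BC4/H2AC6, H2AC7/H2BC7, H2BC8/H2AC8 and H2AC17/H2BC17 had a peak in all 6 libraries. H2AC15/H2BC15 had one in every library except sgCtrl1. H2BC11/H2AC11 and H2BC12/H2AC12 had one in the 4 RH30 libraries and in neither RH4 library, and H2AC25/H2BC26 in both RH4 libraries and in 0 of the RH30 libraries. H2BC13/H2AC13, H2AC14/H2BC14 and H2AC1/H2BC1, the last a testis pair, had none.

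Most peaks were centred between the facing starts. Of 45 peaks over the 12 gaps, 40 had their centre inside the gap, and the median distance of the centre from the middle of the gap was 34 bp. By library the median was 50.25 and 33.75 bp in sgCCAAT2a and sgCCAAT2b, against 173 and 51.75 bp in sgCtrl1 and sgCtrl2, and 24 and 6 bp for RH4 NFYB and NFYC. In sgCtrl1, 4 of 7 centres fell outside the gap, at H2BC4/H2AC6, H2AC7/H2BC7, H2BC8/H2AC8 and H2BC12/H2AC12. In sgCtrl2 it was 1, at H2BC4/H2AC6, and in the other 4 libraries 0. At the other head-to-head pairs the medians were 29.75 and 30.5 bp in the edited libraries, against 39.25 and 52 bp in the controls. In RH4 they were 51.5 and 40 bp. The sgCtrl1 median was thus larger at the histone pairs, with 7 peaks, than at other pairs of the same list. The other pairs have any gap up to 500 bp and were not matched for gap size, which limits how far a centre can lie from the middle. All RH30 peaks of a library have 1 width, 153 and 163 bp in the edited libraries and 189 and 197 bp in the controls.

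**Figure D3:**
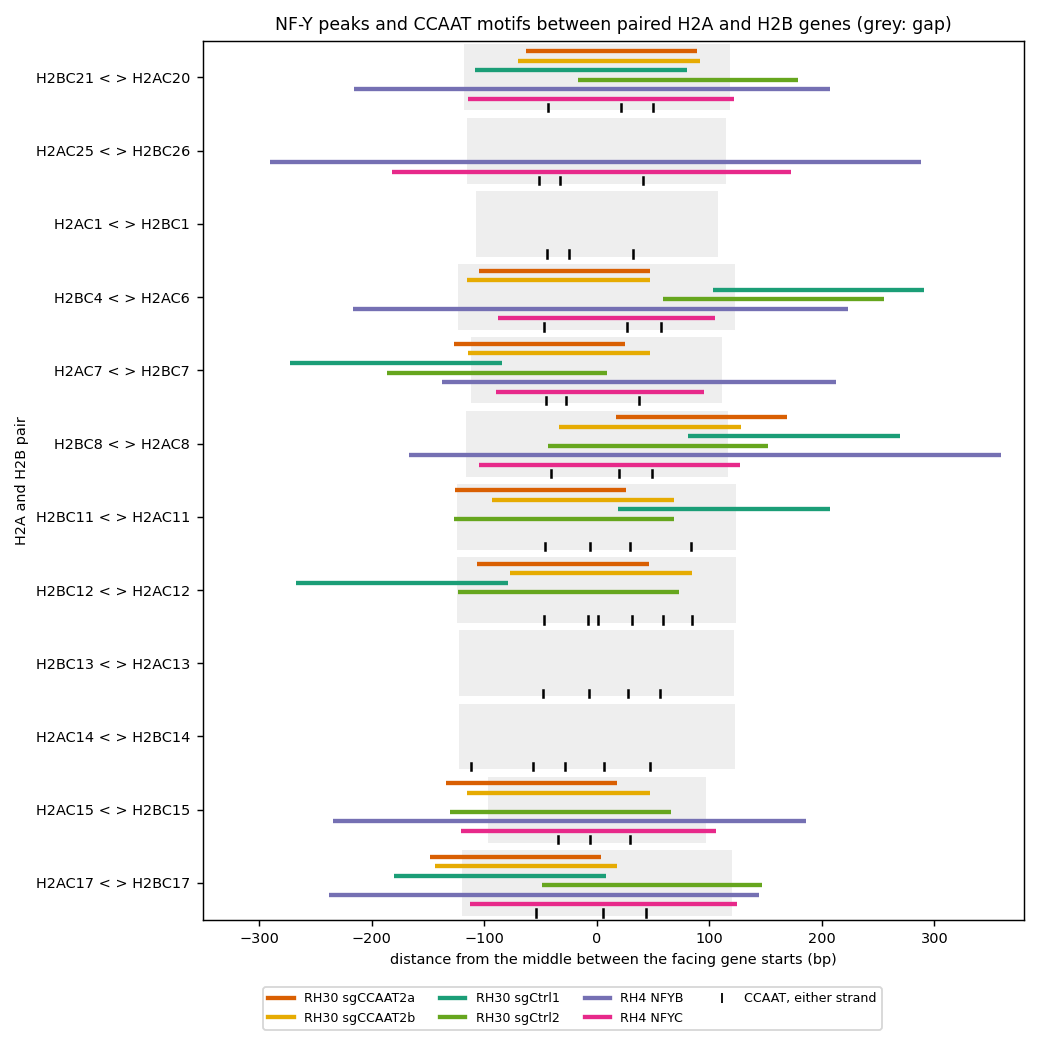
Each row is an H2A and H2B pair, drawn by distance in bp from the middle of the gap between the facing starts, with the gap, the CCAAT or ATTGG positions and the peak of each library. Pairs with peaks show them between the starts, except for 4 of the 7 sgCtrl1 peaks and 1 sgCtrl2 peak, whose centres lie outside.

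Grouped by neighbourhood, with genes less than 500 kb apart put together, the large chromosome 6 cluster at chr6:25726063-26285534 holds 34 genes. It had 15 (44.1%) and 14 (41.2%) with a peak in the edited libraries, against 15 (44.1%) and 17 (50%) in the controls, and 14 (41.2%) and 15 (44.1%) in RH4, above the share of all protein-coding genes (8.9% to 16.8%) in each list. The 5 genes at chr6:27132316-27147562 split by line, with 4 in every RH30 library and 0 in both RH4 libraries. The 16 genes at chr6:27807479-27893891 had 4 (25%) in each edited library, against 2 (12.5%) and 4 (25%) in the controls, and 4 (25%) and 6 (37.5%) in RH4. The sgCtrl1 share there was near the 12.6% of all protein-coding genes in that list. On chromosome 1, the 11 genes at chr1:149782689-149887965 had 5 (45.5%) in every RH30 library and 3 (27.3%) in each RH4 library. The pair H2AC25 and H2BC26, alone at chr1:228457364-228458558, had 0 in RH30 and 2 in RH4. H4C16, alone on chromosome 12, had none.

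Counted over genes, H2BC18, H3C13, H4C1, H2BC11, H2AC11, H2BC12 and H2AC12 had a peak in all 4 RH30 libraries and neither RH4 library, 7 of 69 where all protein-coding genes gave 0.21%. H2AC25, H2BC26, H3C7 and H2BC9 had one with both RH4 antibodies and no RH30 peak, 4 of 69 where all protein-coding genes gave 1.64%. These are few sites, since the genes share them. The nearest RH4 NFYB peak was 472786 bp from the H2BC11/H2AC11 site, 486709 bp from the H2BC12/H2AC12 site and 74063 bp from the H2BC18 site. In the other direction, the nearest RH30 peak to the H2AC25/H2BC26 site was 745241 and 745274 bp away in the edited libraries, against 50642 and 50636 bp in sgCtrl1 and sgCtrl2. The RH4 entries also carry a second set of coordinates, and no source used here names their caller, so line, caller, coordinate handling and the editor of the RH30 cells cannot be told apart here.

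CCAAT or ATTGG occurred in 54 of 64 histone promoters (84.4%), against 36.4% of all 15842 promoters in the table, each searched over the same 300 bases on both strands. At least 3 were found in 33 histone promoters (51.6%), against 4.0% of all promoters. All 16 H2A and all 18 H2B promoters held one, with a median of 3 in each class. All 11 H3 promoters held one, with a median of 2, and all 6 H1 promoters held one, with a median of 1 and a CCAAT 53 to 57 bp before the start. H4 promoters differed: 3 of 13 held one, those of H4C6, H4C9 and H4C13, and 0 of these 3 had a peak. The 23 promoters of paired genes held 3 to 6 each, so all of them are among the 33. Facing genes read the same stretch from both sides, so its motifs count for both genes. This holds for the motif and octamer counts and for the peak shares by number of motifs, so these promoters are not independent.

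A CCAAT read in the direction of the gene began 40 to 110 bp before the start in 53 of 64 histone promoters (82.8%), against 10.3% of all promoters. The octamer ATTTGCAT or its reverse ATGCAAAT, bound by POU2F1, occurred in 11 of 16 H2A, 14 of 18 H2B and 1 of 11 H3 promoters and in 0 H1 and H4 promoters, against 1.7% of all promoters. The 1 H3 promoter is that of H3C4 at the start it shares with H2AC7, so it is the H2AC7 promoter counted again, here and among the promoters with 3 or more motifs. TATAAA within 50 bp before the start occurred in 35 of 64 (54.7%), against 3.95%. These are matches of letters and not measured binding.

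The share of histone promoters with a peak was highest at 3 or more motifs, though not all of those had one. With 3 or more motifs, 20 and 19 of 33 histone promoters had a peak in sgCCAAT2a (60.6%) and sgCCAAT2b (57.6%), against 16 in sgCtrl1 (48.5%) and 20 in sgCtrl2 (60.6%), and 18 (54.5%) and 19 (57.6%) for RH4 NFYB and NFYC. With 0 motifs, 1 of 10 had a peak, in sgCtrl2. Over all promoters with 3 or more motifs (634), the shares were 68.5% and 67.4% in the edited libraries, against 70.8% and 70.3% in the controls, and 74.4% and 76.2% in RH4. At this number of motifs the share of histone promoters with a peak was thus below the share of all promoters in each of the 6 libraries, where the histone share over all numbers of motifs was above it. The 9 histone promoters with 3 or more motifs and no peak in any library are those of H2AC1, H2BC1, H2BC3, H3C3, H3C8, H2BC13, H2AC13, H2AC14 and H2BC14. Among these, H2AC1/H2BC1, H2BC13/H2AC13 and H2AC14/H2BC14 are pairs that each share a stretch.

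**Figure D4:**
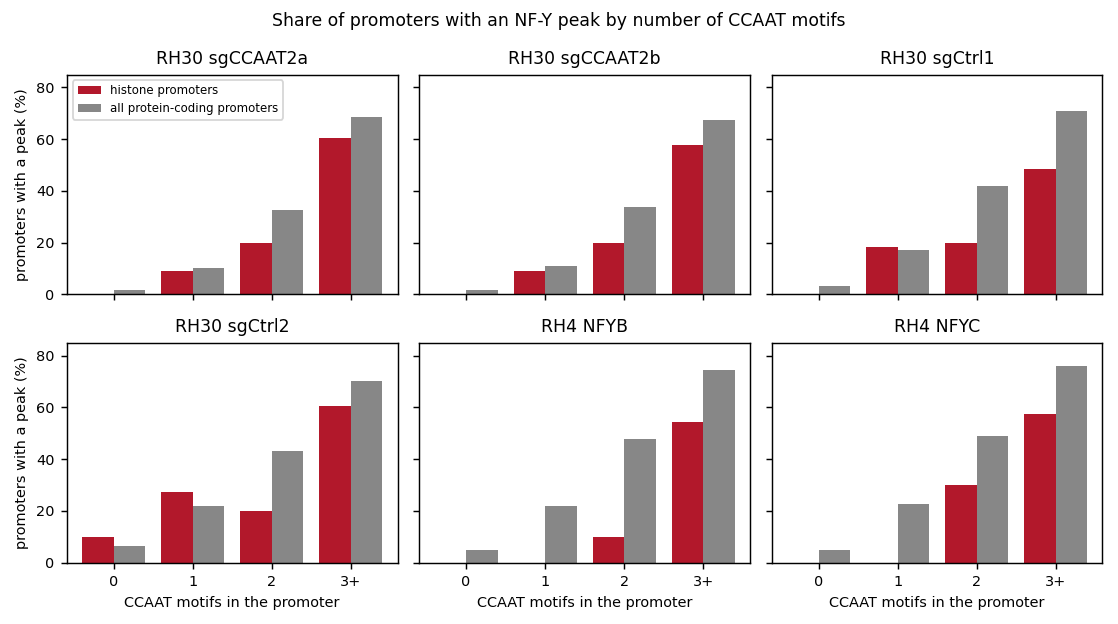
The percent of promoters with a peak, by the number of CCAAT or ATTGG motifs in the promoter (0, 1, 2, 3 or more), for histone promoters and for all promoters, one panel per library. In each library the histone share at 3 or more motifs, 48.5% to 60.6%, lies below that of all promoters, 67.4% to 76.2%.

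Peaks over histone promoters mostly contained the motif. It lay inside 15 of 16 and 15 of 15 such peaks in sgCCAAT2a and sgCCAAT2b, against 9 of 14 and 16 of 18 in sgCtrl1 and sgCtrl2, and in 11 of 11 and 15 of 15 for RH4 NFYB and NFYC, or 81 of 89 in all (91.0%). The median distance from the peak centre to the nearest motif was 18 and 9 bp in the edited libraries, against 45.5 and 17 bp in the controls, and 12 and 8 bp in RH4. Over all promoters the share of peaks with a motif inside was 89.9% and 91.0% in the edited libraries, against 85.7% and 72.0% in the controls, and 81.9% and 82.3% in RH4. As with the pairs, sgCtrl1 was the list whose histone peaks lay farthest from the motifs found. Motifs were searched only in the promoter sequences, so the part of a peak beyond them was not read. The histone peaks without a motif, in sgCCAAT2a, sgCtrl1 and sgCtrl2, all reached past these sequences, and a motif there would have been missed. The part of this in the low sgCtrl1 share and its longer distance was not tested.

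Some histone genes are close copies, and reads that map equally well to both copies can be dropped or split. The promoters of H4C14 and H4C15, H3C14 and H3C15, and H2AC18 and H2AC19 were identical, and those of H4C11 and H4C12 were 98.3% identical. None of these 8 promoters had a peak in any library, where 32 of all 64 histone promoters had none. The H4C14, H4C15, H4C11 and H4C12 promoters also held no CCAAT or ATTGG. The promoters of H2AC13 and H2AC14 were 84.0% identical and those of H2BC13 and H2BC14 79.3%, again with no peak. Whether shared reads lowered these calls was not tested.

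The edited and control lists were then set side by side at the histone genes. Of the 26 histone genes with a peak in both controls, 25 also had one in both edited libraries, where all protein-coding genes gave 66.3%. H4C2 was the 1 histone gene with a peak in both controls and in neither edited library, against 21.6% of all protein-coding genes with a peak in both controls. In the stricter part of each list this count was 3, where sgCtrl1 held 8 histone genes in all. The matching background was not computed there, so the low count in the full lists does not carry over to the stricter part. Of the 27 histone genes with a peak in both edited libraries, 25 had one in both controls, and the other 2, H2AC15 and H2BC15, had one in sgCtrl2. Over the promoters, the 19 with a peak in both controls included 18 that sgCCAAT2a and sgCCAAT2b both had, and the remaining 1 was H1-2. Among all promoters, 1152 of 1749 had a peak in both edited libraries.

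Single peaks were compared next. Of the 24 sgCtrl2 peaks at histone genes, 14 (58.3%) overlapped a peak of sgCCAAT2a and 13 (54.2%) a peak of sgCCAAT2b, while 14 (58.3%) overlapped a peak of sgCtrl1. Of the 2900 sgCtrl2 peaks within the window of any gene end, 45.2% and 47.6% overlapped a peak of sgCCAAT2a and sgCCAAT2b, while 63.9% overlapped one of sgCtrl1. Of the 20 sgCtrl1 peaks at histone genes, 13 (65.0%) overlapped a peak of each edited library, against 64.1% and 67.7% of the sgCtrl1 peaks at any gene end, and 14 (70.0%) overlapped a peak of sgCtrl2, against 86.3%. The histone peaks stand at places 1132 to 4625 of the sgCtrl2 list, and place in the file is taken here in lieu of a rank. Of the 1869 gene-end peaks at those places, 28.0% and 31.0% overlapped a peak of sgCCAAT2a and sgCCAAT2b, while 53.0% overlapped one of sgCtrl1. For sgCtrl1 the histone peaks stand at places 1177 to 3316, and of the 1150 gene-end peaks there 43.9% and 49.7% overlapped a peak of sgCCAAT2a and sgCCAAT2b, while 85% overlapped one of sgCtrl2. The count by gene can differ from the count by peak, since neighbouring genes share a site and a window can hold more than 1. Short peaks at the same promoter can also miss each other. At H2BC4/H2AC6 both edited peaks end at 26124096, while the sgCtrl2 and sgCtrl1 peaks start at 26124108 and 26124152. A peak without an overlap is thus not always a site without a call in the other library.

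The authors' deposited tables list sgCtrl2 peaks that were higher than in another library by a fold of 2.5 at a Poisson p of 0.001, per the file headers, in single libraries without replicates. In the authors' deposited table against sgCCAAT2a, 3 of the 24 histone peaks were listed (12.5%), against 57.0% of the sgCtrl2 peaks at any gene end and 61.9% of all sgCtrl2 peaks. In the authors' deposited table against sgCCAAT2b it was 5 of 24 (20.8%), against 51.1% at any gene end and 60.7% of all. In the authors' deposited table against the other control, sgCtrl1, it was also 5 of 24 (20.8%), against 11.8% at any gene end and 36.2% of all. The listed share of histone peaks was thus below that of gene-end peaks in the 2 tables against the edited libraries and above it in the table against sgCtrl1, with 24 peaks behind it and no test. Restricted to the 14 histone peaks of sgCtrl2 that overlapped an sgCtrl1 peak, the entries in the authors' deposited tables numbered 1 (7.14%) against sgCCAAT2a, 1 (7.14%) against sgCCAAT2b and 2 (14.3%) against sgCtrl1, beside 39.2%, 32.3% and 1.31% of all 2594 shared peaks.

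The histone peaks that the authors' deposited tables list over both edited libraries are the peak at the start of H1-4 and the one inside H4C1, and the second is listed over sgCtrl1 too. The authors' deposited table against sgCCAAT2a also lists the H4C5 promoter peak. The authors' deposited table against sgCCAAT2b also lists the peaks inside H3C2 and H4C2 and the one past the end of H2BC5. The authors' deposited table against sgCtrl1 lists the H2AC7/H2BC7 and H2BC5 promoter peaks, the peak at H3C13 and the one past the end of H2BC5. Of the pair gaps with an sgCtrl2 peak, none was listed over an edited library.

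**Figure D5:**
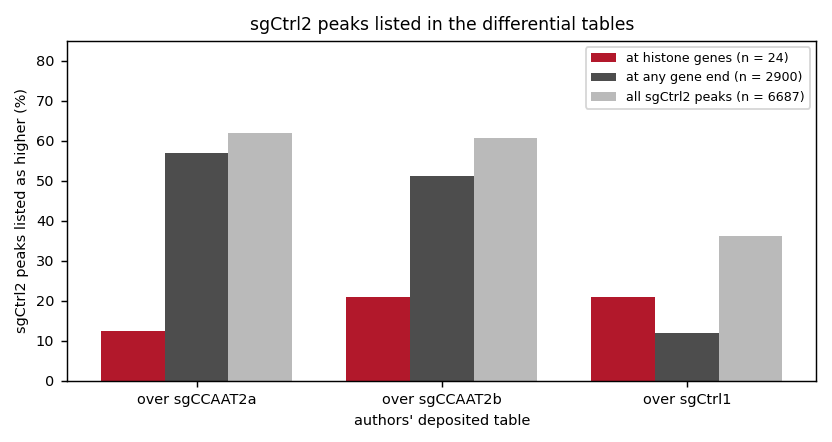
The percent of sgCtrl2 peaks that the authors' deposited tables list as higher in sgCtrl2, over sgCCAAT2a, sgCCAAT2b and sgCtrl1, for peaks at histone genes, at any gene end and for all peaks. Histone peaks were listed at 12.5%, 20.8% and 20.8%, against 57.0%, 51.1% and 11.8% at any gene end.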

How the data were processed

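Only deposited files were used: 6 peak lists, the RH4 consensus list and 3 differential tables, 10 in all, as positions in build hg38. The deposited score column holds a constant 1 in every file, so the authors' lists give no heights. Per the file headers, HOMER called RH30 peaks per library, with 2-fold more tags than an input, 4-fold more than the surrounding 10000 bp and a Poisson p of 0.0001; the input's identity is not stated there. The submitters' processing notes also name Bowtie2, Trimmomatic, MACS2, FastQC, deepTools and bedtools, with no versions or roles. The titles assigned libraries to groups.

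Peaks were joined to 20037 protein-coding genes of RefSeq (GRCh38.p14, chromosomes 1 to 22, X and Y) in Python 3.11.15 with pandas 2.3.3 and scipy 1.17.1. Promoters came from RefSeq and span 300 bases. A gene start was known for 64 of the 69 histone genes. Overlaps needed 1 bp, pairs a gap under 500 bp, and clusters a gap under 500 kb. The distinct sites are overlapping peaks of the 6 lists merged. Near-identical promoters were those with at least 95% of bases alike at a shift of up to 10 bases. Intervals are exact Clopper-Pearson at 95% and cover counting alone. No test between libraries was made, as each guide and antibody has 1. On simulated lists the overlap code was checked against bedtools 2.31.1: 6 of 6 lists gave the same genes among 20037, and all 20 planted genes were found. The plan named a score for the stricter part of each list; lacking one, the first 50% of RH30 entries in file order and the widest 50% in RH4 were taken.

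The histone genes and the lists were chosen with earlier results of these data known. Named genes were every H1 gene, every paired gene, genes with a peak in all 6 libraries or in exactly 1, those in both controls and neither edited library, and those absent in a class where they are under 8. Other genes (those split by line, with near-identical promoters, or with 3 or more motifs and no peak) and the printed promoters were named after their values were seen. Alternatives were windows of 500 and 3000 bp, the gene start alone, the peak centre in the window, an overlap of 50% of both peaks, the stricter part of each list, primary chromosomes only, sgCtrl2 peaks that also overlap an sgCtrl1 peak, and motifs before the gene start only.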

Additional observations from a re-analysis of the deposited data

How the results depend on the processing

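Of 117 values recomputed under the alternatives for 30 results, 98 stayed within 1.5 times the reported count or within its interval, and 19 moved past it. Windows of 500 and 3000 bp, the gene start alone and primary chromosomes only moved none; the windows and the start do not apply to the pairs, which are counted by their gap. The stricter part of each list moved 14. It holds 50% of the entries, and in the full lists the histone peaks have a median place at 62.4% of sgCCAAT2a and 51.7% of sgCCAAT2b, against 60.7% of sgCtrl1 and 40.5% of sgCtrl2. Histone genes with a peak numbered 5 in sgCCAAT2a, 16 in sgCCAAT2b, 8 in sgCtrl1, 11 in RH4 NFYB and 15 in RH4 NFYC. Distinct peaks numbered 2, 8, 5, 6 and 8 in the same lists. Genes with a peak in both controls and neither edited library numbered 3, genes in all 6 libraries 3, and pairs with a peak 2 in sgCCAAT2a and 3 in sgCtrl1. The number of genes in both controls was not computed there, but it is at most the 8 of sgCtrl1. In sgCtrl2 the stricter part held 25 histone genes, 19 distinct peaks and 8 pairs, all within the limit. With the peak centre in the gap, sgCtrl1 had 3 pairs. With an overlap of 50% of both peaks, 8 sgCtrl2 histone peaks overlapped sgCtrl1, against 14 at 1 bp, 7 RH4 NFYC peaks overlapped RH4 NFYB, against 12, and 2 sgCtrl1 and 3 sgCtrl2 peaks overlapped RH4 NFYB, against 9 and 10. RH4 NFYB histone peaks have a median width of 402 bp, against widths of 189 bp in sgCtrl1 and 197 bp in sgCtrl2 and a median of 186 bp in RH4 NFYC, so for many of them 50% could not be covered. The cause of the move between sgCtrl2 and sgCtrl1 was not tested. No paired analysis was possible because each guide and antibody has 1 library, and no library could be left out in turn for the same reason. Without heights, a call just missed cannot be told from a site without signal.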

Other observations

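Among replication-independent histone genes, H3-3A and H3-3B, which encode the variant H3.3, H2AZ1, H2AZ2, H2AX and CENPA, the centromeric H3 variant, had a peak over the promoter in all 6 libraries. H1-7, H1-8, H1-10, H2AJ, H3-5, MACROH2A1 and MACROH2A2 had no window peak in any of the 6 libraries.

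Of 20 regulators of histone gene expression, 7 and 9 had a window peak in sgCCAAT2a and sgCCAAT2b, against 11 and 12 in sgCtrl1 and sgCtrl2, and 12 and 13 in RH4 NFYB and NFYC. All protein-coding genes stood at 8.9% and 9.27%, against 12.6% and 16.8%, and at 15.0% and 15.3% in the same lists. All 6 libraries had a peak over the promoters of NPAT, the coactivator that organises histone loci, CASP8AP2 (FLASH, its partner in the histone locus body), HINFP (an activator of H4 genes), CHAF1A and ASF1B (histone chaperones) and E2F1. ZNF473, which acts in histone mRNA 3′ end processing, had a window peak off its promoter in all 6. SLBP, which binds the histone stem-loop, had a promoter peak in both RH4 lists and no RH30 list, and LSM10 in both controls alone. POU2F1, which binds the octamer, had a promoter peak in sgCtrl2 alone, and CCNE1 in RH4 NFYC alone. YY1 had a window peak in every list except sgCCAAT2a, and over the promoter in 1 list. Other genes had a window peak with none counted over the promoter. These are NASP in both controls and both RH4 lists and CDK2 in sgCCAAT2b, sgCtrl1 and both RH4 lists. CCNE2 had such a peak in both RH4 lists and ASF1A in sgCtrl2 alone. LSM11, ERI1, E2F4 and CHAF1B had no window peak.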
